A study of Mus musculus with 36 samples.

Results

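The 12 arrays described here hold epididymal white adipose tissue of 12 male adult C57BL/6J mice, the HF-DR group, out of 36 arrays in the whole series. These mice ate a purified diet with 30 energy% fat without limit for 3 weeks of adaptation and then a restricted amount of it, given by the labels as 70 en%, for 12 weeks, with extra vitamins and minerals so that intake of these did not fall. All 12 mice shared strain, sex, diet and treatment, so the question is how far single mice of 1 group differed, and in which genes. The arrays were taken by their label, genes were ranked by the standard deviation (SD) of their log2 ratio over the 12 arrays, and genes were then set against Lep, Elovl6, Nr1d1 and Col3a1. Replicates 7, 8 and 9 carry transcripts of the male genital tract, so every result is given for 12 arrays and for the other 9. No array of another group enters any value, although the common reference pool holds RNA of all groups.

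A log2 ratio here is the Cy5 signal of 1 mouse over the Cy3 signal of a pool of all 36 samples, so 0 means the level of the pool and a difference of 1 means a doubling. Each mouse was measured on 1 array on a slide of its own, so the mouse and its slide cannot be told apart. Between 45.2% and 66.3% of probes were well above background per array. The median SD of a gene was 0.191 over 12 arrays and 0.139 over 9, for 18030 genes that were well above background on at least 3 arrays. The Cy3 pool is the same RNA on every array. Its signal was derived from the ratio and the mean log2 intensity of both channels, after quantile normalization of that mean between arrays. This pool signal had a median SD of 0.0856 over 12 arrays, and repeated spots of 1 probe within an array had a median SD of 0.0923. The spread of a typical gene was thus within a few times that of the measurement. In tissue RNA, fewer cells of a type and less RNA per cell cannot be told apart.

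White fat stores triglyceride in adipocytes and releases hormones. Leptin, from Lep, is secreted by adipocytes and tells the brain how much fat is stored, Elovl6 lengthens newly made saturated fatty acids, Nr1d1 encodes the haem-binding clock repressor REV-ERB alpha, and Col3a1 encodes a fibrillar collagen of the tissue's matrix. The tissue also holds macrophages, lymphocytes, vessels and mesothelium. The male epididymal pad lies against the epididymis, and seminal vesicles, which make the secretory proteins of semen, lie near by.

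The genes with the highest SD over 12 arrays were seminal vesicle genes, and replicates 8 and 9 set the ranking. Svs4, a seminal vesicle secretory protein, had log2 ratios of 6.30 in replicate 8, 6.03 in replicate 9 and 0.81 in replicate 7, while the other 9 mice lay between -5.93 and -3.90. Pate4, another secreted protein of the tract, had the highest SD of any gene with a curated symbol, 4.74, with 5.99 in replicate 8, 5.19 in replicate 9, -0.49 in replicate 7 and -7.13 to -4.42 in the rest. Replicates 7, 8 and 9 did not overlap with the other 9 mice for either gene. They had been set apart for carrying such transcripts, so this separation follows from the choice. At the Svs4 probe the derived pool signal had an SD of 2.21 over 12 arrays and 0.05 over 9. It depends on the Cy5 signal too, through the normalized mean of both channels, so it does not show that Cy3 itself differed. The part of this in the ratios was not tested. Svs5, Svs6, Pate14, Tspan1, Ceacam10, Sva, Svs2 and Svs3a completed the first 10. Elf5, a transcription factor of secretory epithelia, and Cldn8, a tight junction protein, were also among the first 20, with ratios of 4.63 and 4.62 in replicate 8 and at most -2.53 and -1.28 in the 9 other mice.

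The mean log2 ratio of the tract markers, of which 17 of 30 listed genes were measured, was 3.91 in replicate 8, 3.70 in replicate 9, -0.37 in replicate 7 and -3.47 to -2.60 in the other 9 mice. Smooth muscle and pericyte markers had means of 0.96 and 1.30 in replicates 8 and 9, 0.02 in replicate 7 and -0.89 to -0.46 in the others. Cnn1, a smooth muscle contractile protein, reached 3.96 in replicate 8. The list was split: regressed on Lep over 12 mice, 7 of its 12 genes passed a limma adjusted p of 0.05 negatively and 4 positively. Of all genes, 11.7% and 15.1% did. Cnn1 was among the 7 (r = -0.83) and Mcam among the 4 (r = 0.86). Epithelial markers had means of 2.69, 2.43 and 0.97 in replicates 8, 9 and 7 and at most -0.34 elsewhere. Adipocyte markers, 19 of 20 measured, went the other way, with means of -1.06 and -0.90 in replicates 8 and 9 against -0.08 to 0.13 in the other 10 mice. Adipoq, the adipokine adiponectin, was well above background on all 12 arrays. Of the 17 tract markers, 16 were well above background in each of replicates 7, 8 and 9 and 10 to 14 in the others. The part of tract tissue in the values of replicates 7, 8 and 9 was not tested.

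An SD of at least 1 was reached by 287 of 18030 genes (1.59%) over 12 arrays and by 24 (0.133%) over 9, and 20 genes were in both sets. An SD of at least 0.5 was reached by 1256 genes (6.97%) and 304 genes (1.69%). Without replicate 8 alone the count at 1 over the other arrays was 173. All of the 100 genes with the highest SD over 12 arrays had their highest value in replicate 8 or 9, and 85 of those had an SD under 0.5 in the other 9 mice. The first principal component held 71.4% of the variance over 12 arrays, with scores of 77.5 for replicate 8, 66.1 for replicate 9, 1.99 for replicate 7 and -18.4 to -11.6 for the rest. Over 9 arrays the first and second components held 25.1% and 23.7%, and replicates 5 and 6 stood farthest out.

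**Figure D1:**
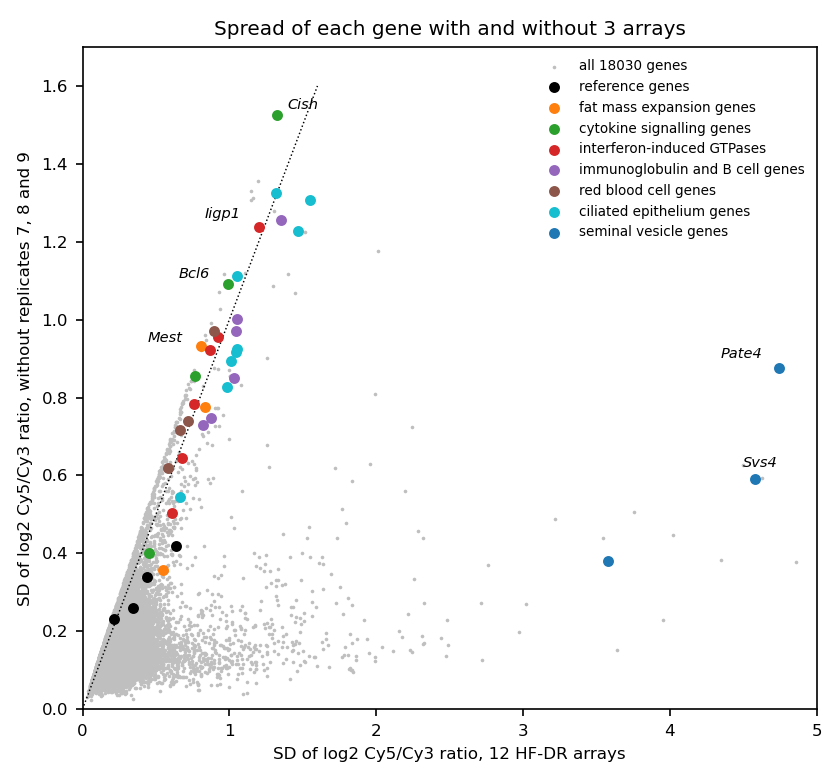
SD of each gene's log2 Cy5/Cy3 ratio over 12 arrays (horizontal axis) against its SD over 9 arrays without replicates 7, 8 and 9 (vertical axis). Grey points are 18030 genes, coloured points are named groups, and the dotted line marks equal SD; Pate4 and Svs4 lie far to the right of it (4.74 and 4.58 over 12 arrays), and Cish is the highest point over 9 arrays (1.53).

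Without replicates 7, 8 and 9, the most variable gene was Cish, a member of the suppressor of cytokine signalling family that is induced by STAT5 and dampens signalling of cytokine and growth hormone receptors. Its probe lies on the plus strand at chr9:107159966-107160025 of mm8. Log2 ratios of Cish over the 9 mice ran from -1.78 to 2.56 with a median of -0.97 and an SD of 1.53, a 20.2-fold range. Replicates 3 and 4 were highest, at 2.56 and 1.73, and every other mouse was at 0.40 or lower. The SD of the pool signal at the same probe was 0.0895 over these arrays. Leaving out any 1 of the 12 arrays left an SD between 1.02 and 1.39.

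Bcl6, a zinc finger repressor best known from germinal centre B cells, ranked with Cish among the first 20. It was lowest in replicates 3 and 4, where Cish was highest. Its ratios were -1.43 in replicate 3 and -1.28 in replicate 4, then -0.94 in replicate 5, and the other 6 of the 9 mice lay between 0.59 and 1.19. The opposite order did not extend to replicate 5, where Cish was low as well (-1.38). In the left-out replicate 8 Cish was at 0.40 and Bcl6 at 0.04. The SD was 1.09, and replicate 9 has no value because the spot was marked as an outlier. Phlda1, a pleckstrin homology-like protein, was like Cish highest in replicates 3 and 4, with 1.51 and 0.77 against -1.08 to -0.47 in the other 7. Socs2, the family member that acts on the growth hormone receptor, varied less, with an SD of 0.40 and its highest value, 0.78, also in replicate 3. A second Socs2 probe, well above background on 11 arrays, was highest there too but only at -0.06. Its SD over 9 arrays was 0.15, and r with the main probe was 0.61. Phlda1 and Socs2 were picked after their values had been seen, so the shared order of mice is a description.

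Cish and Bcl6 are both known STAT5 target genes, so 1 stretch at a start of each is shown. Within it every match to TTCNNNGAA, the spaced palindrome that STAT factors bind, is marked. Sequences are from RefSeq, GRCm38.p6, in the direction of transcription, with the matches in capitals. The Bcl6 stretch, chr16:23981358-23981456 on the minus strand, spans bases 173 to 75 before 1 Bcl6 start. The window of another Bcl6 start held 1 match, at -118, which is not shown, so the stretch belongs to the start with more matches. The Cish stretch, chr9:107296655-107296682 on the plus strand, begins 4 bases before its start.
Bcl6: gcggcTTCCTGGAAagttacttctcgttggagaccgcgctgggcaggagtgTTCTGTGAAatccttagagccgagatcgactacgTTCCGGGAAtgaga
Cish: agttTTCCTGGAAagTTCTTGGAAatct
At least 1 match is held by 7.02% of 32851 windows of 250 bases before a start, and at least 3 matches by 9 windows (0.0274%), one of them this Bcl6 window. The Cish window held 0 matches before the start and 2 directly after it. The motif was chosen after the values had been seen, and a match is a description of letters, not of binding.

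Interferon-induced GTPases, which attack the vacuoles of intracellular microbes, formed another group among the variable genes. Iigp1, of the immunity-related GTPases, ran from -1.72 to 2.13 over the 9 mice with a median of -0.22 and an SD of 1.24, a 14.5-fold range, with replicate 6 highest and replicates 1 and 5 lowest. Replicate 9 gave no value for Iigp1, its spot being marked as an outlier. Tgtp1 had an SD of 0.96 and was also lowest in replicates 1 and 5 (-1.61 and -1.72), but highest in replicate 2 (0.96), and replicate 6 was at -0.15. Igtp was highest in replicates 6 and 2 (1.47 and 0.83) and lowest in replicates 1 and 5 (-0.89 and -0.83). The guanylate-binding proteins Gbp2, Gbp3 and Gbp4 had SDs of 0.50, 0.64 and 0.92 and their lowest values over the 9 mice in replicates 1 and 5 too. Of the left-out mice, replicate 8 was as low as these for Iigp1 (-1.69) and Tgtp1 (-1.42). Tgtp1 has a near-identical copy, Tgtp2, and the array cannot be taken to separate them.

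Not all interferon genes shared that order. The fixed list of interferon-inducible genes, 21 of 22 measured, had a median SD of 0.33 over 9 mice against 0.139 for all genes, and 3 of its members had an SD of at least 0.5, where 1.69% of all genes did. Gbp3 was the most variable member, followed by Ifit1, which binds viral RNA, with an SD of 0.57. Ifit1 was highest in replicate 12 (1.49) and lowest in replicate 5 (-0.28).

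The start regions of 3 immunity-related GTPases carry a shared element, shown because Tgtp1, Igtp and Irgm2 were all lowest over the 9 mice in replicates 1 and 5: TTCNNNGAA followed after 2 bases by a spaced repeat of GAAA, in which 2 bases lie between 2 copies, as bound by interferon regulatory factors. Capitals mark both. The stretches are from RefSeq, GRCm38.p6, in the direction of transcription, at chr11:48992308-48992340 on the minus strand (Tgtp1), chr11:58199505-58199537 on the plus strand (Igtp) and chr11:58214896-58214928 on the plus strand (Irgm2).
Tgtp1: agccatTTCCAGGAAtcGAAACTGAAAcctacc
Igtp: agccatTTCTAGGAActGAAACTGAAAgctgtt
Irgm2: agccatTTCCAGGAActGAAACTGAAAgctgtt
Over both strands the joined element occurs in 5 of 32851 upstream windows (0.0152%), those of Gm12185, Igtp, Irgm2, Tgtp1 and Tgtp2. Its order and spacing are those of the 3 stretches shown, noted after the values had been seen, so its presence in them follows from its definition. The 3 genes are of 1 family and their stretches also match largely outside the capitals, so they are not independent cases. The spaced GAAA repeat alone occurs in 2.98% of windows, in 8 of 13 interferon list genes that have an entry, and in 4 of 4 of the GTPases described above that have one (Gbp2, Gbp3, Igtp and Tgtp1). Irgm2, added for this comparison, had an SD of 0.64 over 9 mice and its lowest values in replicates 5 and 1 (-1.37 and -0.90). These motifs were chosen after the values were seen.

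Genes whose level is known to follow the growth of fat pads were highest in replicate 6. Mest, an imprinted gene of adipocyte enlargement, was at -0.09 in replicate 6 while the other 11 mice lay between -3.05 and -1.48, and its SD fell from 0.81 over 12 arrays to 0.49 without that mouse. Npr3, the clearance receptor that removes natriuretic peptides, was likewise highest in replicate 6 (-1.19) and ran down to -3.74 in replicate 5 and, among the left-out mice, to -4.06 in replicate 8. Both other Npr3 probes followed the main one closely (r of 0.99 and 0.94 over 12 arrays) and were highest in replicate 6 too. Bmp3, a secreted ligand of the transforming growth factor family, was also highest in replicate 6 (-0.30). Lep was highest in the same mouse, at -0.05.

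**Figure D2:**
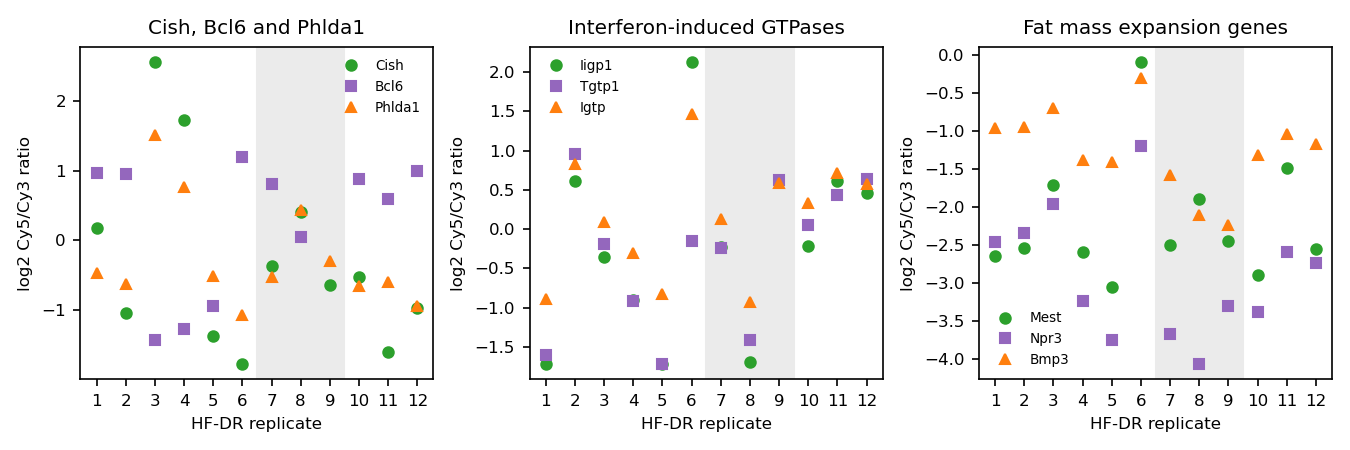
Log2 Cy5/Cy3 ratio (vertical axes) in each HF-DR mouse (horizontal axes) for Cish, Bcl6 and Phlda1 (left), the GTPases Iigp1, Tgtp1 and Igtp (middle), and Mest, Npr3 and Bmp3 (right); points are single arrays and the grey band marks replicates 7, 8 and 9. Cish and Phlda1 are highest in replicates 3 and 4, where Bcl6 is lowest (-1.43 and -1.28), and Mest, Npr3 and Bmp3 are highest in replicate 6; replicate 9 has no value for Bcl6 and Iigp1.

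Immunoglobulin and B cell genes varied with an order of their own. Iglv1, a light chain variable segment, ran from -1.58 to 2.10 over the 9 mice with an SD of 1.26 and was highest in replicates 2 and 1. The 7 other Iglv1 probes gave smaller SDs over the 9 mice, 0.61 to 0.90, and with the mean of the probes kept in place of the brightest the SD over 12 arrays fell from 1.35 to 0.825. Igh, the heavy chain locus, ran from -1.28 to 1.40, with replicates 4 and 2 highest and replicate 12 lowest. Jchain, which joins secreted antibody molecules, had an SD of 0.97 and its highest values in replicates 1 and 4 (0.68 and 0.41). Ms4a1, the B cell surface protein CD20, and Cxcl13, the chemokine that draws B cells, had SDs of 0.75 and 0.73, with their highest values in replicates 2 and 4 (2.01 and 2.13) and replicate 5 at -0.74 and -0.13. Marco, a scavenger receptor of some macrophages, was highest in replicate 4, at 1.32 in replicate 1 and at -0.97 in replicate 5. The left-out replicates 8 and 9 were lowest of all 12 mice for Igh and Marco. Of the B and plasma cell list, 9 of 17 genes were measured, and 4 of those had an SD of at least 0.5 over 9 mice, where 1.69% of all genes did.

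Red blood cell genes were high in replicates 4, 5 and 7 together. Hbb-bt, a beta globin, was at 1.54, 1.29 and 1.14 there, at -1.12 in replicate 6, and had an SD of 0.97 over the 9 mice. Hba-a1, an alpha globin, was at 1.26, 0.99 and 0.86 in the same mice and at -0.70 in replicate 6. Alas2, which starts haem synthesis in red cell precursors, and Slc4a1, the anion exchanger of the red cell membrane, were highest in the same 3 mice too (1.10, 0.97 and 0.89, and 1.74, 1.11 and 1.18). Globin genes share sequence, so Hbb-bt and Hba-a1 may also report their copies, and the pool signal at the Hbb-bt probe had an SD of 0.36. Of the 10 genes listed 7 were measured, and 5 of the 7 had an SD of at least 0.5 over 9 mice, against the same 1.69%.

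Genes of ciliated epithelium filled several of the first 20 places over 9 mice. Foxj1, the transcription factor that switches on motile cilia, was at 0.77 in replicate 4, -0.28 in replicate 3 and -1.07 in replicate 2, and between -1.84 and -1.55 in the other 6. Fam183b, Ccdc153 and Tmem212, all genes of motile cilia, showed the same order, with 0.77, 0.54 and 0.49 in replicate 4 and -0.55, -0.97 and -0.89 in replicate 3. Dynlrb2, a dynein light chain, ran from -2.53 to 0.54, again with replicate 4 highest. Of the left-out mice, replicates 9 and 7 were high for Fam183b (1.24 and -0.21) and replicate 8 was not (-2.75), so these genes did not follow the seminal vesicle genes, which were higher in replicate 8 than in replicate 7. Ccdc153 has no value in replicate 9. Tekt1, a tektin of cilia and sperm tails, had another order, with 2.10 in replicate 5 and 2.03 in replicate 12. Ccdc113, also of this group and among the first 20, was highest in replicate 5 (1.85) and at 0.67 in replicate 4. Ccdc113 and Tmem212 were each well above background on 5 of 12 arrays, so their low values lie near the floor.

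Cdh16, an epithelial cadherin, the protease Mmp7 and the calmodulin-like Calml3 were also highest in replicate 4 (0.79, 0.51 and 0.04) and next highest in replicate 3 among the 9 mice. Plet1, an epithelial surface protein, was at 0.42 in replicate 4 and -3.18 in replicate 11, and at 2.79 in replicate 8, with no value in replicate 9. The second Plet1 probe did not follow it (r of 0.06 over 9 arrays) and was highest among the 9 mice in replicate 5, at 1.54, with 0.15 in replicate 4. Pate4 in replicate 4 was at -6.55, within the range of the 9 mice, and the tract marker mean there was -3.16. The epithelial marker mean in replicate 4 was -0.34 against -0.83 to -0.50 in the other 8. The part of epithelial cells in these values was not tested. GTTGCC, the core of the element that RFX factors of ciliated cells bind, was found on either strand before the start of 6 of 8 genes of this group that have an entry, against 10.4% of all windows; the motif and the group were chosen after the values had been seen.

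**Figure D3:**
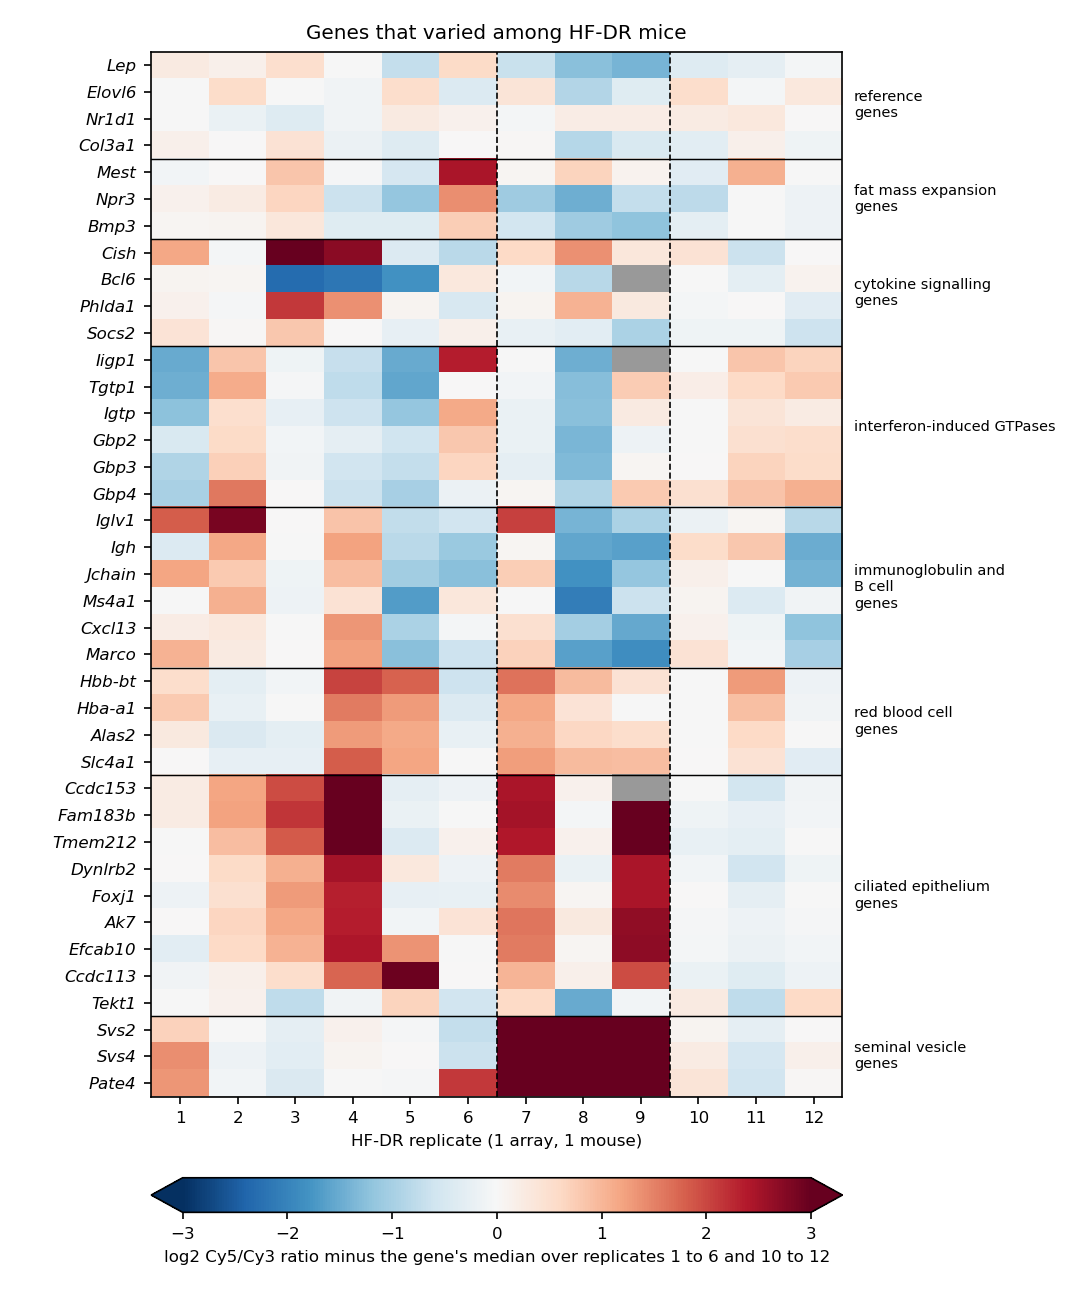
Log2 Cy5/Cy3 ratio minus each gene's median over replicates 1 to 6 and 10 to 12 (colour, from -3 or lower in blue to 3 or higher in red) for named genes (rows) in the 12 HF-DR mice (columns); dashed lines enclose replicates 7, 8 and 9 and grey marks a missing value. Each group has its own set of high mice: replicates 3 and 4 for Cish, replicate 6 for Mest, replicates 4, 5 and 7 for red blood cell genes, replicates 4, 7 and 9 for most ciliated epithelium genes.

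Part of the list over 9 mice rests on 1 array each. Of the 50 most variable genes, 20 had an SD under 0.3 once their most extreme array was left out, 9 through replicate 5, 7 through replicate 6 and 4 through replicate 3, and 12 of the 20 were detected on fewer than 9 arrays. Tmigd3, Shd and Rapgef4 were at -4.14, -3.84 and -3.94 in replicate 3 and near 0 in the other 8 mice. The pool signal of these 3 genes had SDs of 1.33, 1.26 and 1.20 over the same arrays, close to the 1.36, 1.33 and 1.28 of their ratios. The pool is the same RNA on every array, so these ratios are not read as differences between mice. As at Svs4, the derived pool signal depends on the Cy5 signal too, and the part of Cy3 alone was not tested. Among the 9 mice Rspo2, Inhbe and Alx1 were high in replicate 6 alone (3.18, 3.41 and 2.81) and Oprm1 in replicate 5 alone (3.17). Rspo2 was also at 1.96 and 1.21 in replicates 8 and 9. The pool signal of Rspo2, Inhbe, Alx1 and Oprm1 had SDs of 0.19, 0.20, 0.42 and 0.08 over the 9 arrays. The other Rspo2 probe was at -0.06 in replicate 6, and the 2 other Oprm1 probes were at 0.19 and 0.28 in replicate 5. That Rspo2 probe was well above background on 0 arrays and the Oprm1 probes on 0 and 2. They therefore cannot show whether the high values recur at a second probe. Cish, Bcl6 and Iglv1 were no such case, with SDs of 1.16, 0.96 and 0.90 without their most extreme array. Some genes had more than 1 probe that was well above background on at least 9 of the 12 arrays. Over 9 arrays the median correlation between their 2 brightest such probes was 0.32 for all 5382 of these genes. For the 29 of them with an SD of at least 0.5 it was 0.75. It thus covers 29 of the 304 genes with that SD.

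The 4 reference genes themselves varied less than these. Lep ran from -2.02 to -0.05 over 12 mice with a median of -0.80 and an SD of 0.64, and from -1.34 to -0.05 over 9 mice with an SD of 0.42; replicates 9, 8, 5 and 7 were lowest and replicates 6 and 3 highest. Elovl6 ran from 1.26 in replicate 8 to 2.68 in replicate 2, with an SD of 0.44 over 12 and 0.34 over 9, and among the 9 it was lowest in replicate 6 (1.72). Col3a1 ran from -2.63 in replicate 8 to -1.34 in replicate 3, with SDs of 0.34 and 0.26. Nr1d1 had the smallest spread, from -2.25 to -1.55, with SDs of 0.21 and 0.23. The pool SDs of the 4 probes over 12 arrays lay between 0.0602 and 0.10. Lep, Elovl6, Nr1d1 and Col3a1 were well above background on all 12 arrays, but 2 further Nr1d1 probes followed the main one only at r of 0.12 and 0.45, so the order of mice behind its correlations was not shared by a second probe, although the SDs of those 2 probes were also small (0.131 and 0.076 over 12 arrays). The 2 further Col3a1 probes gave 0.90 and 0.70 over 12 arrays and 0.76 and 0.46 over 9, and the second was well above background on 6 of 12 arrays.

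Mice with more Lep had more Col3a1, while the sign for Lep and Elovl6 depended on the mice included. Lep and Col3a1 had r = 0.79 (rho 0.71) over 12 mice, with p = 0.0109 for r and 0.0688 for rho by permutation tests adjusted over 6 pairs, so the pair did not pass by ranks, and r = 0.72 over 9 with an adjusted exact permutation p of 0.112. Without replicates 9 and 8, which lie farthest from the median of Lep, r was 0.60. Without replicate 8 alone r was 0.71, and with ratios scaled between arrays 0.60 (adjusted permutation p = 0.124), and neither passed. Lep and Elovl6 had r = 0.23 over 12 mice (rho 0.028, adjusted permutation p = 0.502) but r = -0.66 over 9 (rho -0.48, adjusted exact permutation p = 0.112), a turn of sign, and -0.67 without replicates 9 and 8 and -0.12 without replicate 8 alone. Of those 9 mice, replicates 5, 10 and 2 had Elovl6 of 2.65 to 2.68, and replicate 6 had the highest Lep with the lowest Elovl6. Without replicates 5 and 6 as well, r for Lep and Elovl6 was -0.32.

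Nr1d1 had negative values with both Lep and Col3a1. For Lep and Nr1d1 r was -0.58 over 12 mice (rho -0.57, adjusted permutation p = 0.0965) and -0.66 over 9 (adjusted exact permutation p = 0.112). For Nr1d1 and Col3a1 r was -0.61 over 12 (rho -0.48, adjusted permutation p = 0.0965) and -0.58 over 9 (adjusted exact permutation p = 0.148). Without 2 arrays farthest from the median of the first gene these were -0.51 and -0.38. Without replicate 6, r for Lep and Nr1d1 was -0.69, and without replicate 11 r for Nr1d1 and Col3a1 was -0.80, and both then passed; with the background fitted on all spots they became 0.17 and 0.0352. Elovl6 and Nr1d1 gave -0.21 over 12, 0.08 without replicates 8 and 2, and 0.0925 over 9. Elovl6 and Col3a1 gave 0.35 over 12, -0.21 without replicates 8 and 2, -0.15 without replicate 8, and -0.51 over 9 (adjusted exact permutation p = 0.186). Of the 6 pairs, Lep with Col3a1 over 12 mice was the one whose r passed 0.05.

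Lep was lower where tract markers were higher, with r = -0.83 (rho -0.74) over 12 mice and an adjusted permutation p of 0.0194 over 12 relations between reference genes and array measures; r was -0.49 without replicates 8 and 9 and -0.11 over 9 mice. The other 11 of those relations did not pass. Lep and the tract markers had a rho with an adjusted permutation p of 0.0914. Over 9 mice, Lep and Col3a1 had r of 0.72 and 0.71 with the share of probes well above background, with an adjusted exact permutation p of 0.191 for each, and replicate 5, lowest in both genes among these mice, was also lowest in that share (45.2%). Over the 12 mice without replicates 5 and 10, r with that share was -0.39 for Lep and -0.19 for Col3a1. The part of that share in the correlations was not tested.

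**Figure D4:**
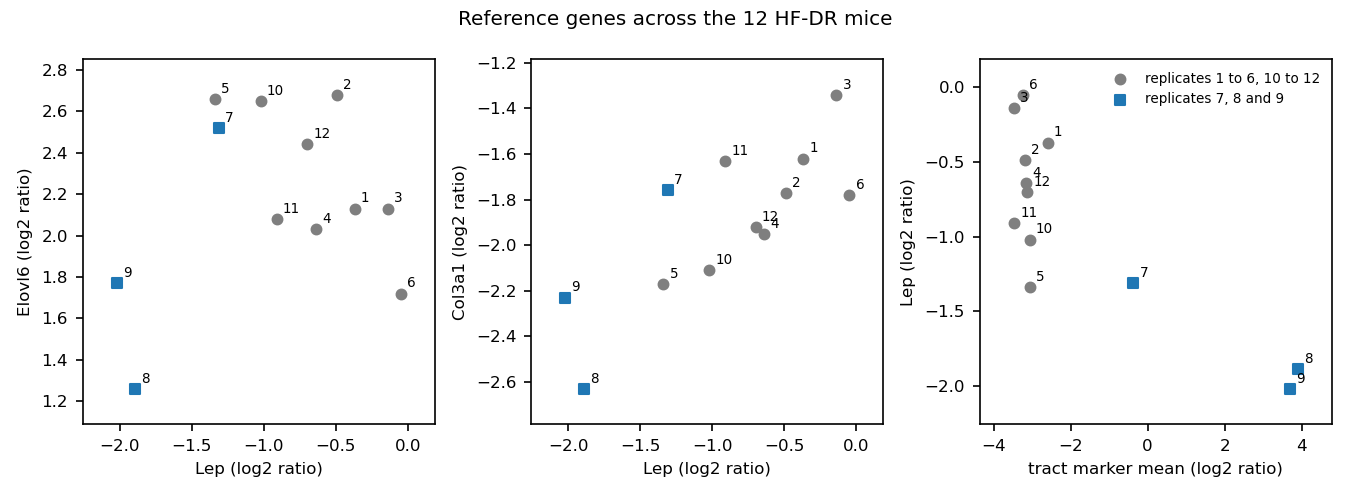
Log2 Cy5/Cy3 ratios of Elovl6 against Lep (left), Col3a1 against Lep (middle) and Lep against the mean log2 ratio of 17 tract markers (right); each numbered point is 1 mouse and blue squares are replicates 7, 8 and 9. Replicates 8 and 9 lie at the low end of Lep in all panels, and without replicates 7, 8 and 9 the left panel slopes down (r = -0.66) and the middle one up (r = 0.72).

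Regressed on Lep with limma, 4149 of 15456 genes (26.8%) passed an adjusted p of 0.05 over 12 mice, 2341 with a positive slope (15.1%) and 1808 with a negative one (11.7%). Over 9 mice 0 passed, with 1769 at an unadjusted p under 0.05 and a smallest adjusted p of 0.0565. Without replicate 9 alone 161 passed and without replicate 8 alone 579. Of the 4149 genes, 3015 (72.7%) kept the sign of r over 9 mice, which are a subset of the same 12.

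Among the genes that passed with Lep, Slc6a13, a transporter of GABA and taurine, had r = 0.95 over 12 mice and 0.95 over 9. Anxa2, a membrane-binding annexin, had 0.96 and 0.91, and Ntrk2, the receptor of brain-derived neurotrophic factor, 0.95 and 0.85. Bmp3, already described for replicate 6, had r = 0.95 over 12 mice (limma adjusted p = 0.00101) and 0.84 over 9. Adrb1, the beta1-adrenergic receptor through which catecholamines start fat breakdown, had 0.95 and 0.87 with no value in replicate 6, and Cav1, the coat protein of adipocyte caveolae, 0.94 and 0.86. With a negative sign, Mfsd2a, a carrier of lysophospholipids, had r = -0.90 and -0.67; its ratios were 2.93 and 2.82 in replicates 8 and 9 and lower in every other mouse. Apoc4, an apolipoprotein, had -0.90 and -0.90, and Ero1a, the oxidase of protein folding, -0.92 and -0.80.

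Without replicates 8 and 9 but with replicate 7, 8 genes passed with Lep, among which Slc6a13, Duox2, Npr3, Creb3l3, Sybu and Tuba1a rose with it and Adtrp fell. This setting, and one with the tract marker mean as a covariate, were added after the data had been seen; with the covariate 5 genes passed, of which Slc6a13, Creb3l3 and Tuba1a are among those 8. The slope of Npr3 on Lep without replicates 8 and 9 was 1.63 with a standard error of 0.21 (limma adjusted p = 0.0136). Creb3l3, a membrane-bound transcription factor of lipid metabolism, was at 0.24 in replicate 6, between -0.62 and -0.37 in replicates 1 to 4 and between -2.02 and -1.55 in replicates 5, 7, 8, 9, 10, 11 and 12. Pik3r1, the regulatory subunit of phosphoinositide 3-kinase, which also passed with the covariate, had the highest r with Lep over 9 mice among curated symbols, 0.96 against 0.85 over 12.

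With Elovl6, 3625 of 15456 genes (23.5%) passed over 12 mice, 1974 positive (12.8%) and 1651 negative (10.7%), and 0 over 9, with 1764 at an unadjusted p under 0.05 and a smallest adjusted p of 0.187. Without replicate 8 alone 1 gene passed; without replicates 9, 12 or 6 the counts were 1898, 2414 and 6136. Of the 3625 genes 3299 (91.0%) kept their sign over the 9 mice. St3gal3, a sialyltransferase, had the highest r among genes with a curated name, 0.96 over 12 mice and 0.94 over 9. Eno1, the glycolytic enolase, had 0.94 and 0.87, and Uqcr10, a subunit of respiratory complex III, 0.95 and 0.88. Snapc4 and Aff1, which act in transcription, had r of -0.97 and -0.95 over 12 mice and -0.94 and -0.92 over 9.

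Genes of fatty acid synthesis rose with Elovl6 over 12 mice: 18 of 23 tested passed with a positive sign and 1 with a negative one, where 12.8% and 10.7% of all genes did, and the median r was 0.75 against 0.15 for all genes. Me1, the malic enzyme that supplies NADPH, had r = 0.92 (limma adjusted p = 0.00325), Slc25a1, the mitochondrial citrate carrier, 0.92, and Acly, which splits that citrate into acetyl-CoA, 0.87. Over 9 mice the median of the list fell to 0.30 against -0.03 for all genes, while these 3 stayed at 0.87, 0.89 and 0.78. Fasn, the fatty acid synthase itself, went from 0.73 to 0.23 and Scd1, the desaturase, from 0.76 to 0.55. Fasn was saturated on 6 arrays and Fabp4 on 4, where a signal is a lower bound. With the covariate, 23 genes passed with Elovl6, among them Me1, Slc25a1, Eno1, Uqcr10, St3gal3 and Mpc2, a subunit of the mitochondrial pyruvate carrier.

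Oxidative genes went with Elovl6 in the same way and changed sides with Lep. Of the respiratory chain, 27 of 39 passed with a positive sign with Elovl6, where 12.8% of all genes did, with a median r of 0.77 over 12 mice and 0.55 over 9; of the citric acid cycle and pyruvate oxidation 21 of 29 passed, with 0.80 and 0.52. With Lep the respiratory chain median was 0.53 over 12 mice, with 8 of 39 passing positively and 1 negatively, not far from the 15.1% and 11.7% of all genes, and -0.38 over 9, where 34 of 39 had r below 0. With Col3a1 the median went from 0.47 to -0.52, with 37 of 39 below 0 over 9 mice, and for the citric acid cycle from 0.48 to -0.53, with 29 of 29 below 0. Fatty acid oxidation followed, with medians with Elovl6 of 0.77 and 0.39 and with Lep of 0.53 and -0.46. The adipocyte marker means of replicates 8 and 9, given above, were the lowest of the 12 mice, and their part in these shifts was not tested.

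Fat mass expansion genes went with Lep in both sets of mice, while their sign with Elovl6 depended on the mice included. Of 14 tested, 9 passed with a positive sign with Lep and 1, Ccnd1, with a negative one, where 15.1% and 11.7% of all genes did, with a median r of 0.80 over 12 mice and 0.59 over 9, against 0.20 and 0.05 for all genes. Sncg, gamma-synuclein of adipocytes, had r = 0.92 over 12 mice and 0.84 over 9. With Elovl6 the same list had a median of 0.27 over 12 mice. Of its genes 1 passed positively and 1 negatively, where 12.8% and 10.7% of all genes did. Over 9 mice the median was -0.65 and 0 passed, and Mest went from -0.57 to -0.79. Among those 9 mice replicate 6 had the lowest Elovl6 and the highest Lep and Mest, and its part in these values was not tested. Adipocyte markers had medians with Lep of 0.68 and -0.06, and 12 of 19 passed positively over 12 mice, against the same 15.1%. Plin1, the coat protein of lipid droplets, stayed at 0.77 over 9 mice, whereas Fabp4, the fatty acid-binding protein, went from 0.68 to -0.58.

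**Figure D5:**
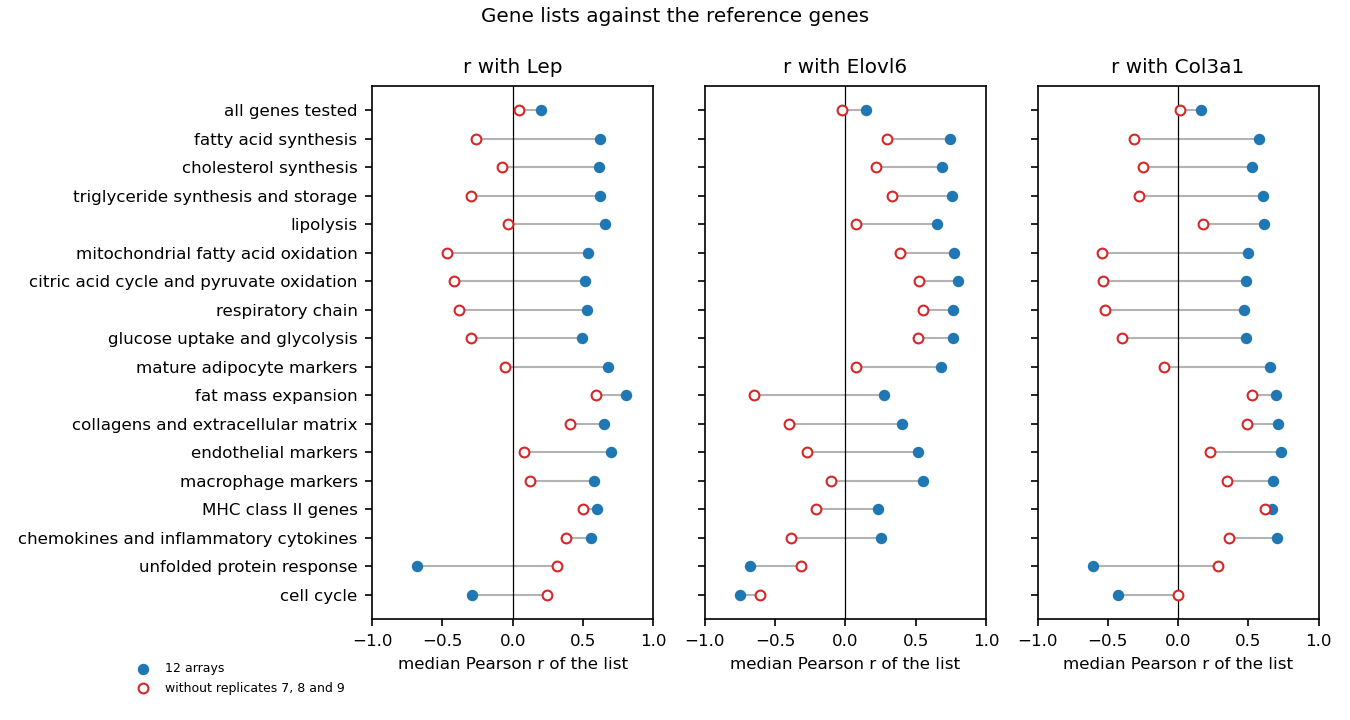
Median Pearson r of each gene list with Lep (left), Elovl6 (middle) and Col3a1 (right); filled blue points are 12 arrays, open red points are 9 arrays without replicates 7, 8 and 9, and the top row is all genes tested. With Elovl6 the respiratory chain stays positive (0.77 and 0.55) and fat mass expansion crosses 0 (0.27 to -0.65), while with Lep the respiratory chain crosses from 0.53 to -0.38.

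Cell cycle genes went against Elovl6 in both sets of mice. Of 19 tested, 12 passed with a negative sign, where 10.7% of all genes passed negatively; the median r was -0.75 over 12 mice and -0.61 over 9, and 19 of 19 had r below 0 over 9. Cdc20, an activator of the anaphase-promoting complex, was at 0.94 in replicate 8, 0.34 in replicate 6 and 0.32 in replicate 4 and at -0.47 in replicate 2. Aurka, a mitotic kinase, was highest in replicates 8 and 6 (0.29 and 0.20), the mice with the lowest Elovl6, and had r = -0.89 over 9 mice. With Lep the cell cycle list had medians of -0.29 and 0.24.

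Col3a1 passed with 2687 of 15456 genes (17.4%) over 12 mice, 1509 positive (9.76%) and 1178 negative (7.62%), and with 0 over 9, with 1702 at an unadjusted p under 0.05 and a smallest adjusted p of 0.151. Without replicate 8 alone the limma count was 0, and without replicates 9, 1, 11, 2, 5 or 3 it was 990, 1580, 1600, 1610, 4153 and 4259. Of the 2687, 2269 (84.4%) kept their sign over 9 mice. Among collagen and other matrix genes 27 of 44 passed with a positive sign, where 9.76% of all genes did, with median r of 0.71 over 12 mice and 0.49 over 9, where 42 of 44 lay above 0. Col1a2, a chain of type I collagen, had r = 0.91 in both sets, Lamb1, a laminin chain, 0.90 and 0.90, and Col1a1 0.71 and 0.84.

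Some immune and vessel genes also went with Col3a1, and others did not. Ccr2, the receptor that brings monocytes into tissue, had r = 0.95 over 12 mice and 0.90 over 9, and Ccl7 and Ccl9, chemokines, had 0.87 and 0.92 over 12 and 0.87 and 0.83 over 9. Of macrophage markers 13 of 27 passed positively and 1, Cd9, negatively, where 9.76% and 7.62% of all genes did, with medians of 0.68 and 0.35 against 0.17 and 0.02 for all genes. All 9 MHC class II genes tested, which present antigen, had r above 0 with Col3a1 and with Lep over 9 mice, with medians of 0.62 and 0.50. Over 12 mice 4 of the 9 had passed positively with Col3a1 and 2 with Lep, the latter not far from the 15.1% of all genes. Of endothelial markers 11 of 20 passed positively, but their median fell from 0.73 to 0.23 over 9 mice, while Cldn5, the claudin of endothelial junctions, had 0.88 and 0.86. Among 12 T and NK cell, 8 B and plasma cell, 8 mast cell, 3 neutrophil and 20 interferon-inducible genes limma called 0 with a positive sign, with 6 at an unadjusted p under 0.05 and a positive sign. Aqp5, a water channel, had one of the steepest slopes on Col3a1, 1.92 with a standard error of 0.23 (limma adjusted p = 0.00552), and ran from -1.87 in replicate 8 to 0.60 in replicate 3. Eaf2, an elongation factor-associated protein, had r = -0.87 and -0.90.

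No gene passed with Nr1d1: limma called 0 of 15456 genes (0%) over 12 mice, with 738 at an unadjusted p under 0.05 and a smallest adjusted p of 0.791. Over 9 mice limma called 0 as well, with 1227 at an unadjusted p under 0.05 and a smallest adjusted p of 0.463. The 20 clock genes tested were among those that did not pass, and their median r was 0.04 over 12 mice and 0.14 over 9. Nr1d2, the related repressor REV-ERB beta, had r = 0.50 with Nr1d1 over 12 mice and 0.61 over 9. Dbp, a clock output factor, had -0.10 and 0.02 and Per1 0.10 and 0.30. The largest absolute r were those of Trim65 (-0.90), Dpp6 (-0.90) and Herc3 (0.87), given as a description. Per2, a core repressor of the clock, passed with Lep (r = 0.86, limma adjusted p = 0.0055, and 0.70 over 9). Its ratios were -0.53 and -0.30 in replicates 9 and 8 and 0.11 to 0.80 in the 9 mice. Of 21 clock genes tested with Lep over 12 mice, 3 passed positively and 1 negatively. These shares were not above the 15.1% and 11.7% of all genes. In the 250 bases before the start, Nr1d1 held no match on either strand to the clock E-box CACGTG (6.02% of windows hold it), to the D-box TTATGTAA (0.819%), to the nuclear receptor half-site AGGTCA (14%) or to the sterol element TCACNCCAC (1.05%). Elovl6 held 1 match, to the half-site. These matches describe letters only.

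Some genes of the fixed lists varied in 1 or a few mice. Fkbp5, a target of glucocorticoids, had an SD of 0.58 over 9 mice, with -1.06 and -0.84 in replicates 2 and 1 and 0.65 in replicate 3, and r with each of the 4 reference genes between -0.26 and 0.01 over 9 mice. Ciart, a clock repressor, had an SD of 0.54 that fell to 0.17 without replicate 5, where it was at 1.20. Ucp1, the uncoupling protein of brown and beige adipocytes, was well above background on 6 of 12 arrays and ran from -0.07 to 1.26 over the 9 mice with replicate 5 highest, so it was not entered in the correlations. Fos, an immediate early gene, ran from -0.63 to 0.43. Sfrp5, a Wnt inhibitor of the fat mass list, had an SD of 0.15 over 9 mice and was well above background on 8 of 12 arrays.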

How the data were processed

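The authors deposited scanner output of 36 2-colour Agilent arrays and a series matrix. The scanner software was Feature Extraction, version 9.5.3.1, as the submitters' processing notes say. Per the labels, 500 ng RNA of each animal was labelled, Cy5 is the animal and Cy3 the pool. The intensity values used are, per the file headers, mean spot signals and local background medians, not normalized. The deposited log2 series matrix and the authors' processed intensity signals served as alternatives; the matrix follows Cy5 (r of at least 0.997; medians 9.27 to 9.29), and its scale, centring and method are not given in the sources used here.

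Spots with net signal under -50 were dropped, background was corrected by normexp (offset 50) and ratios by loess (4 iterations, control weight 0) in limma 3.58.1 (R 4.3.3), without scaling between arrays. The Cy3 pool signals alone used mean log2 intensities of both channels that were quantile-normalized between arrays. Outlier spots were dropped (0.0219% to 1.20% of values missing per array), saturated ones kept. The brightest probe stood for a gene. Correlations used genes well above background on at least 9 of 12 arrays. limma regressed each gene on the reference gene, two-sided, with Benjamini-Hochberg adjustment; pairs used 100000 permutations or, for 9 mice, exact ones. Scripts were tested on simulated data. Where nothing says replicates are separate extractions, p-values measure the spread between these samples. Of 41174 probes, 24375 were named by accession, 6301 by symbol, 2386 by synonym and 54 by another accession through the RefSeq annotation, and 8058 kept the file's name.

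The members, lists and tests were chosen with earlier results of these data known. Genes named were the reference genes, the 20 highest SDs in both sets of arrays, the 10 highest and lowest r per reference gene, list members of highest SD or smallest adjusted p, and a fixed set; Phlda1, Socs2, Irgm2, the further ciliated epithelium, GTPase, immunoglobulin and red cell genes, the genes that passed under added settings, Pik3r1 and the motifs TTCNNNGAA, the spaced GAAA repeat and GTTGCC were chosen after their values were seen. Alternatives tried are in the closing section. The number of arrays limits the precision. One gene that passed under an added setting is not reported here.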

Additional observations from a re-analysis of the deposited data

How the results depend on the processing

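Counts of genes passing and correlations moved with the processing as follows; the cause was not tested. With normexp fitted on all spots, 1475 genes passed with Elovl6 and 46 with Nr1d1, and r became 0.17 for Lep with Nr1d1, 0.24 for Elovl6 with Nr1d1 and 0.0352 for Nr1d1 with Col3a1. The authors' processed signals gave 6431 genes with Elovl6 and 887 with an SD of at least 1. The deposited matrix gave 6034 with Col3a1; Lep is not in it. Scaling between arrays left 0 with Col3a1 (limma, 3337 at an unadjusted p under 0.05) and r = 0.60 for Lep with Col3a1. Detection on all 12 arrays left 109 genes with an SD of at least 1. Spearman ranks left 0 with Lep, Elovl6 and Col3a1 in limma (2892, 2871 and 2378 at an unadjusted p under 0.05) and 0.71 for Lep with Col3a1, which did not pass (adjusted permutation p = 0.0688). The mean of all kept probes moved the SD of Iglv1 from 1.35 to 0.825. Without replicates 7, 8 and 9, 0 passed with any, r was -0.66 for Lep with Elovl6, 0.72 for Lep with Col3a1, 0.0925 for Elovl6 with Nr1d1 and -0.51 for Elovl6 with Col3a1, and 24 genes had an SD of at least 1. Without replicates 8 and 9, chosen after seeing the data, limma passed 8 with Lep, 0 with Elovl6 (1760 unadjusted) and 0 with Col3a1 (1677 unadjusted); the same correlations were -0.67, 0.60, 0.0583 and -0.48, and 44 genes had an SD of at least 1. With the tract markers as covariate, also chosen after seeing the data, 5, 23 and, for Col3a1, 0 passed in limma (1080 unadjusted).

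Leaving out 1 array at a time gave 161 to 5208 genes with Lep, 1 to 6136 with Elovl6, 0 to 4259 with Col3a1 and 0 to 0 with Nr1d1, and 173 to 314 with an SD of at least 1. Correlations ran from -0.12 to 0.43 (Lep with Elovl6), -0.69 to -0.48 (Lep with Nr1d1), 0.71 to 0.84 (Lep with Col3a1), -0.36 to -0.08 (Elovl6 with Nr1d1), -0.15 to 0.47 (Elovl6 with Col3a1) and -0.80 to -0.42 (Nr1d1 with Col3a1). No paired analysis was possible because there is 1 group. The slide as a block could not be fitted, since each array has its own slide.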
